A study of Mus musculus with 2 samples.

Results

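The chromosome 13 histone and tRNA gene cluster was described from all 6200 consecutive 500 bp windows of mouse mm9 chr13:21000001-24100000, out of 5309781 windows on the assembled chromosomes. The windows were chosen by position alone, with no measured value. Sequenced chromatin immunoprecipitates (ChIP-seq) came from 2 libraries of E14 cells, a feeder-free mouse embryonic stem cell line of strain 129P2/OlaHsd at passage 25 to 30. The first library was precipitated with rabbit serum against LUZP1, a leucine zipper protein, and the second was a mock precipitation, which the sample label gives as no antibody and the design text as GST. Both were made from 300 µg of chromatin, the labels name no further treatment or genetic change, and there was 1 library per group. The study asked where in the genome LUZP1-associated DNA lies. No difference below has a replicate check, so every interval covers counting error only, at 95%, and no p-value is given.

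Transfer RNA genes are short and are transcribed by RNA polymerase III. Their promoter lies inside the gene and consists of an A box near the start and a B box near the end, which the factor TFIIIC binds before TFIIIB and the polymerase are placed. Transcription stops at a run of T residues shortly after the gene. The replication-dependent histone genes of the same cluster are read by RNA polymerase II in S phase, lack a poly(A) tail and are packed closely together as H2A, H2B, H3, H4 and H1 copies, and the cluster also holds odorant and vomeronasal receptor genes, whose products work in the nose.

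The cluster matched its label. It held 49 core histone genes (14 H2A, 15 H2B, 9 H3 and 11 H4), 6 linker histone H1 genes and 50 receptor genes in the GENCODE annotation. A search of the genome sequence for tRNA-like structures, meaning an A box, a B box and 3 base-paired arms, found 105 sequences in the cluster and 519 in the genome. The cluster thus held 20.2% of the tRNA-like sequences in 0.117% of the genome. RefSeq lists 105 tRNA genes on mouse chromosome 13 and 408 nuclear tRNA genes in all, on a later assembly, and the search also found 105 on the whole chromosome. The equal number is no independent check, because the search rule had been loosened until its counts came near those of RefSeq. The names used below, such as tRNA-Ala-AGC, give the amino acid and anticodon read from each sequence and are not taken from an annotation. The 105 sequences read 36 anticodons for 17 amino acids, 1 of them being an anticodon (TTA) that pairs with a stop codon. They were 71 to 106 bp long, with 54 on the plus and 51 on the minus strand. In 11 of them the fold left an intron of 13 to 23 bp, and 16 lay inside an annotated gene.

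The authors' deposited list of LUZP1 peaks has 47 entries at 44 loci, of which 3 loci lie in the cluster. All 3 overlapped a tRNA-like sequence, as did 5 of the 44 loci in the whole genome. These peaks are printed here because they show what the listed sites consist of, read 5′ to 3′ on the strand of the tRNA-like sequence, with the overlapping part of that sequence in capitals.
Peak at chr13:23492662-23492795, minus strand, tRNA-Ala-AGC: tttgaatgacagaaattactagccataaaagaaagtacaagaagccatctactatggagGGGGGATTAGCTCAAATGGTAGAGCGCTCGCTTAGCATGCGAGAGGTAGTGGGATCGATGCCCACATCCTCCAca
Peak at chr13:23504749-23504861, minus strand, tRNA-Ala-AGC: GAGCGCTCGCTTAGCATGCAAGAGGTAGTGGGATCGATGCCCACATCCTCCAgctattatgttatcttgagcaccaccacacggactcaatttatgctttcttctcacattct
Peak at chr13:21947806-21947912, plus strand, tRNA-Thr-AGT: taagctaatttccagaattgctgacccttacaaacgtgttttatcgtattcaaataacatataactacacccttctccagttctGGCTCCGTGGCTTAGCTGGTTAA
The first peak held the whole of a 73 bp sequence, the second 52 bp of a 73 bp sequence and the third 23 bp of a 74 bp sequence. The sequences in the first and second peaks carry the B box GGATCGATGC, which the first form of the search rule did not accept. Their overlap thus rests on a rule that was loosened after the data files had been seen.

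A further 5 tRNA-like sequences are printed as contrasts, with the A box (8 bases) and the B box (10 bases) in capitals. The first 3 had many LUZP1 reads and at most 1 mock read, and the last 2 had more mock than LUZP1 reads.
tRNA-Ala-AGC, chr13:23492664-23492736, minus strand: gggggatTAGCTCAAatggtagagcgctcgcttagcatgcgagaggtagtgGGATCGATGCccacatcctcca
tRNA-Thr-CGT, chr13:21414682-21414755, plus strand: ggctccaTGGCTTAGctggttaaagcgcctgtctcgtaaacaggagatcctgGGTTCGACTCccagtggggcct
tRNA-Met-CAT (initiator), chr13:21802863-21802934, plus strand: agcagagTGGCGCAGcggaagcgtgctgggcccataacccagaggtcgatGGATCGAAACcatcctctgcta
tRNA-Lys-TTT, chr13:22063657-22063729, plus strand: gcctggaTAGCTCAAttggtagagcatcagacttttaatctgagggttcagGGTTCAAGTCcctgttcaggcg
tRNA-Ser-GCT, chr13:21584714-21584795, minus strand: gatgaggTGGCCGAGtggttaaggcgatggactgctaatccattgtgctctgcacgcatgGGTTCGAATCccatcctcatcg
Both boxes are present in all 5, since the search required them, so their presence separates neither kind from the other.

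The LUZP1 library held 4214959 reads and the mock 2734938, a mock to LUZP1 ratio of 0.649, which scaled the counts in every ratio below. Reads were counted at their midpoint after extension to 200 bp. Plus and minus reads lay most often 85 bp apart in the LUZP1 library and 162 bp apart in the mock. These distances were taken as fragment lengths, which would then differ between libraries, and such pairs as the ends of 1 fragment. Pairs were joined by distance alone, so separate fragments can be merged where reads are dense, and whether each pair was 1 fragment was not tested. Ratios were therefore also computed with such pairs counted once, from 3471825 LUZP1 and 1983254 mock fragments. The part that the difference in fragment length plays in the ratios was not tested.

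Across the whole cluster the LUZP1 library had 5781 midpoints and the mock 3386, a scaled LUZP1 to mock ratio of 1.11 (1.06–1.16). With pairs counted once it was 1.08 (1.03–1.14), and against autosomal windows of the same GC content it was 1.12 (1.07–1.16). The rest of chromosome 13 gave 0.996 (0.989–1.0). The small difference lay at the tRNA-like sequences. Without the windows that hold one, the cluster had a ratio of 1.0 (0.961–1.05), and in windows more than 1000 bp from any of them it was 0.989 (0.945–1.04).

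**Figure D1:**
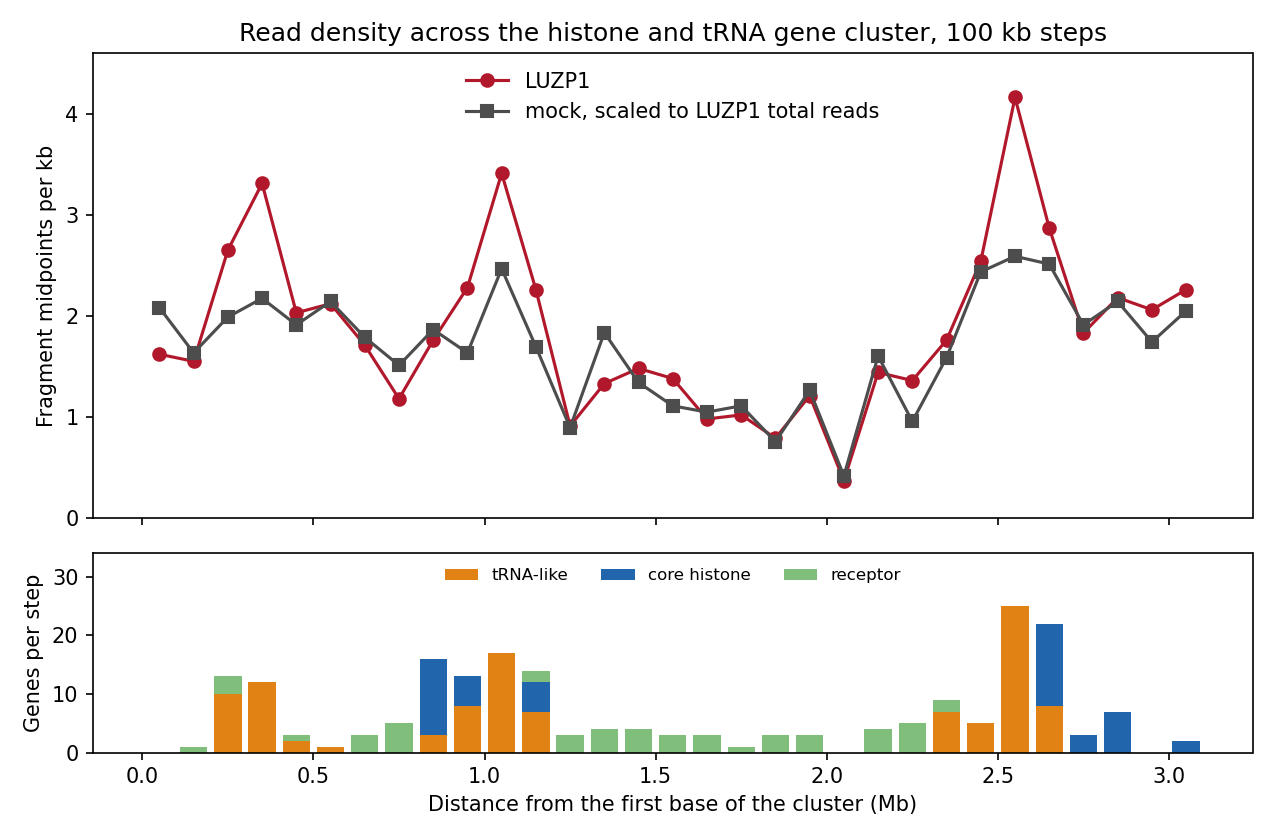
Fragment midpoints per kb in 100 kb steps along the cluster for LUZP1 (red circles) and the mock scaled to the LUZP1 total (grey squares), above the number of tRNA-like sequences, core histone genes and receptor genes in each step. The LUZP1 line stands farthest above the mock in the step with 25 tRNA-like sequences, at 4.16 against 2.59 midpoints per kb.

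Along the cluster, cut into 31 steps of 100 kb, most steps with a LUZP1 excess held tRNA-like sequences. Of the 12 steps with a tRNA-like sequence, 6 had an interval above 1, and of the 19 steps without, 1 did, against 9.75% of all autosomal steps. An interval below 1 was found in 2 steps, both without a tRNA-like sequence, against 11.8% of autosomal steps. When pairs were counted once, 3 steps had an interval above 1, all 3 with tRNA-like sequences, and 0 had an interval below 1, against 5.4% and 7.25% of autosomal steps. The step at chr13:23500001-23600000, with 25 tRNA-like sequences and 0 histone or receptor genes, had 416 LUZP1 and 168 mock midpoints, a ratio of 1.61 (1.34–1.93). The step at chr13:23000001-23100000 had 37 and 27 midpoints, with 21.6% of its 36-base sequences occurring once in the genome, so reads could be placed in little of it.

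Each window was given 1 class by the genes it holds, with tRNA-like sequences taking precedence. The 122 windows with a tRNA-like sequence had 734 LUZP1 and 127 mock midpoints, a ratio of 3.75 (3.10–4.56). With pairs counted once it was 3.41 (2.74–4.29), and by windows of the same GC content 3.58 (2.96–4.36). These windows made up 1.97% of the cluster and held 12.7% (11.8–13.6, exact binomial) of its LUZP1 midpoints against 3.75% (3.14–4.45) of its mock midpoints. Mock density was itself higher there than in windows without a gene, at 3.21 against 1.52 midpoints per kb on the LUZP1 scale, while LUZP1 density was 12 against 1.51.

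**Figure D2:**
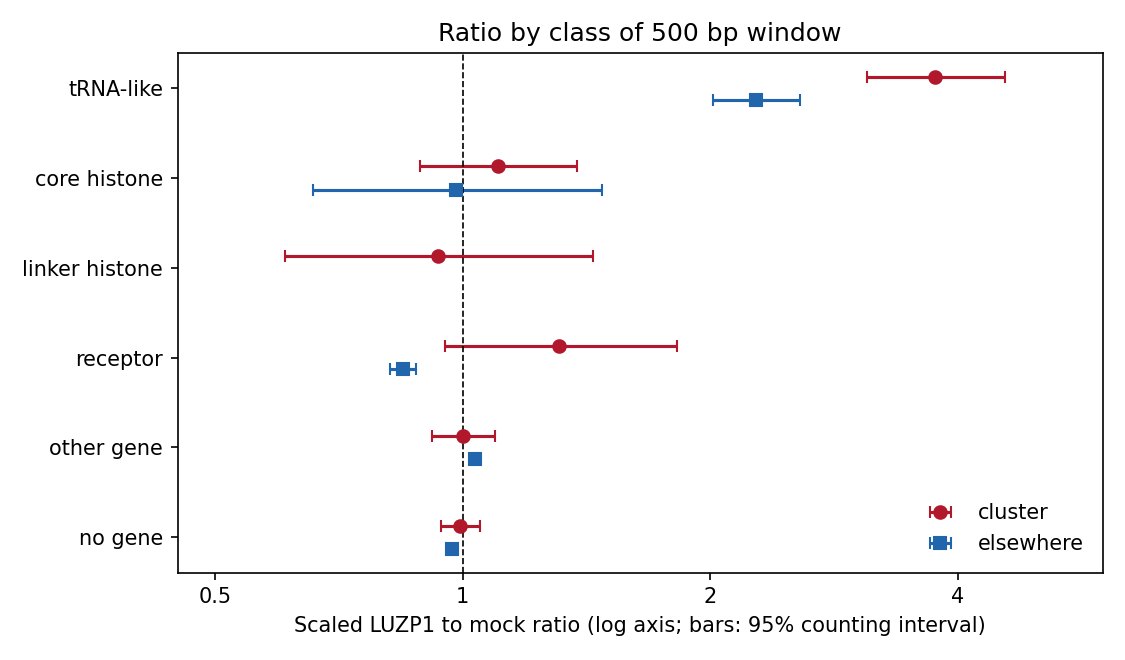
Scaled LUZP1 to mock ratio on a log axis by class of 500 bp window, in the cluster (red circles) and in the rest of the genome (blue squares), with 95% counting intervals as bars and a dashed line at equal density. The tRNA-like class of the cluster stands at 3.75 and the other classes of the cluster between 0.932 and 1.31, with no linker histone window elsewhere.

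The histone and receptor windows did not reach this ratio. The 201 core histone windows had 228 LUZP1 and 134 mock midpoints, a ratio of 1.10 (0.888–1.38). A large part of them belongs to 1 gene, Hist1h2be, which is annotated over 37383 bp. It had 81 and 38 midpoints with 250 bp on each side. Linker histone windows, 22 in number, had 56 and 39 midpoints, a ratio of 0.932 (0.608–1.44). The 151 receptor windows had 119 and 59, a ratio of 1.31 (0.95–1.82). In receptor windows of which at least 80% of the 36-base sequences occur once, the ratio was 1.59 (1.08–2.38), with an interval above 1. Windows with another gene (1272) gave 1.0 (0.917–1.09) and those with no gene (4432) gave 0.993 (0.941–1.05). The tRNA-like ratio was 3.40 (2.53–4.56) times the core histone ratio, 4.03 (2.49–6.45) times the linker histone ratio and 2.87 (1.95–4.18) times the receptor ratio within the cluster, each by an exact conditional interval.

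Set against the same classes elsewhere in the genome, the tRNA-like windows of the cluster stood higher. Elsewhere, 475 tRNA-like windows had 1198 LUZP1 and 342 mock midpoints, a ratio of 2.27 (2.01–2.57). The cluster's ratio was 1.65 (1.31–2.08) times that, or 1.57 (1.20–2.06) with pairs counted once. The sets also differed in make-up, and the part this plays in the gap was not tested. Of the sequences in the cluster, 89 of 105 had all 3 arms fully paired, against 237 of 414 elsewhere. Over stretches reaching 250 bp past each end, the fully paired sequences had ratios of 3.94 (3.20–4.90) in the cluster and 2.92 (2.52–3.40) elsewhere, a ratio between them of 1.35 (1.04–1.76). The other 177 sequences elsewhere had a ratio of 1.0 (0.806–1.25), and the other 16 in the cluster 2.60 (1.72–4.05), a ratio between them of 2.58 (1.60–4.25). Over all sequences, counted in the same stretches, it was 1.67 (1.33–2.09). Core histone windows did not differ beyond counting error between the cluster and elsewhere, with a ratio of ratios of 1.13 (0.705–1.79). Receptor windows of the cluster exceeded those elsewhere by 1.55 (1.12–2.16) times, with those elsewhere at 0.846 (0.816–0.877). GC content was 40.8% in the former and 38.3% in the latter, and matching by GC content gave 1.32 (0.956–1.83) and 0.955 (0.921–0.990).

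Window by window, 364 of the 6200 windows had at least 5 midpoints in both libraries together, and 37.9% had none in either. Of the 364, 117 (32.1%) were past 2-fold toward LUZP1, computed with 1 added to each count, against 18.7% of tested windows in the genome. Toward the mock, 63 (17.3%) passed, against 21.2%. Among the 92 tested windows with a tRNA-like sequence, 61 (66.3%) were past 2-fold toward LUZP1 and 2 toward the mock. Of the 129 tested tRNA-like windows elsewhere, 72 (55.8%) were past 2-fold toward LUZP1. The tRNA-like windows of the cluster held 734 LUZP1 and 127 mock midpoints, so they reached the minimum of 5 mainly through LUZP1. Shares among tested tRNA-like windows thus describe windows picked in part by the library that is high, and add no support to the class ratio. Outside the tRNA-like windows of the cluster, 56 of 272 tested windows (20.6%) were past 2-fold toward LUZP1 and 61 (22.4%) toward the mock, shares near those of the genome. By the stricter rule of an exact interval past 1, 19 windows lay toward LUZP1, 18 of them with a tRNA-like sequence and 1 at the linker histone gene Hist1h1a (chr13:23855501-23856000, 9 and 0 midpoints), against 0.362% of tested windows in the genome. The share among tested tRNA-like windows was 19.6% in the cluster and 17.8% (23 of 129) elsewhere. The same rule gave 13 windows toward the mock, 0 of them with a tRNA-like sequence, against 4.47% in the genome. With pairs counted once, 157 windows were tested, of which 59 (37.6%) were past 2-fold toward LUZP1, against 11.5% in the genome, and 6 (3.82%) toward the mock, against 8.32%. The 59 included 45 of the 74 tested windows with a tRNA-like sequence. By the exact interval, pairs counted once left 2 windows toward LUZP1, both with a tRNA-like sequence, against 0.0624% in the genome, and 1 toward the mock, against 0.758%. Among tested tRNA-like windows those 2 were 2.70%, where 10 of 97 (10.3%) were called elsewhere.

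The 10 windows with the highest lower bound toward LUZP1 all held a tRNA-like sequence. The first, chr13:23492501-23493000, had 21 LUZP1 midpoints and 1 mock midpoint, 13.6 (2.19–564), and held tRNA-Ala-AGC and part of tRNA-Val-AAC. The window of tRNA-Thr-CGT at chr13:21414501-21415000 had 14 and 0, and so had the window at chr13:21988501-21989000. That window holds tRNA-Ile-TAT inside the annotated microRNA gene Mir1983, which had 14 and 2 midpoints with 250 bp on each side. Next came tRNA-Ala-AGC at chr13:23523001-23523500 with 13 and 0, and tRNA-Leu-CAA at chr13:21292001-21292500 with 12 and 0. The other 5 windows had 10 or 11 LUZP1 midpoints and 0 mock midpoints. With pairs counted once, the interval stayed above 1 in the first 2 of the 10 windows (18 and 1 fragments, lower bound 1.62, and 10 and 0, lower bound 1.28). In the other 8 it crossed 1, with 6 to 8 LUZP1 fragments, 0 mock fragments and lower bounds of 0.673 to 0.975.

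The 5 windows leaning most toward the mock held no tRNA-like sequence and lay 6573 bp or more from the nearest. They had 0 LUZP1 and 7 mock midpoints at chr13:21639001-21639500, 0 and 6 at chr13:21828001-21828500 near the histone gene Hist1h4j, 0 and 6 at chr13:24009501-24010000, 1 and 8 at chr13:21494001-21494500 in the zinc finger gene Zkscan3, and 0 and 5 at chr13:21285001-21285500 in Trim27, a tripartite-motif gene. At least 93.2% of the 36-base sequences in each of these windows occur once in the genome. When pairs were joined, the interval crossed 1 at Zkscan3 (1 and 4 fragments) and at Trim27 (0 and 3).

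By windows placed at their distance from the nearest tRNA-like sequence, the LUZP1 excess was short in range. Windows that begin or end within 500 bp of a tRNA-like sequence without holding one had 223 LUZP1 and 112 mock midpoints, a ratio of 1.29 (1.03–1.64), or 1.19 (0.913–1.56) with pairs counted once. From 500 to 1000 bp the ratio was 1.19 (0.910–1.56), and from 1000 to 2000 bp it was 1.01 (0.820–1.26). Beyond 20000 bp it was 0.979 (0.927–1.03) over 4538 windows.

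**Figure D3:**
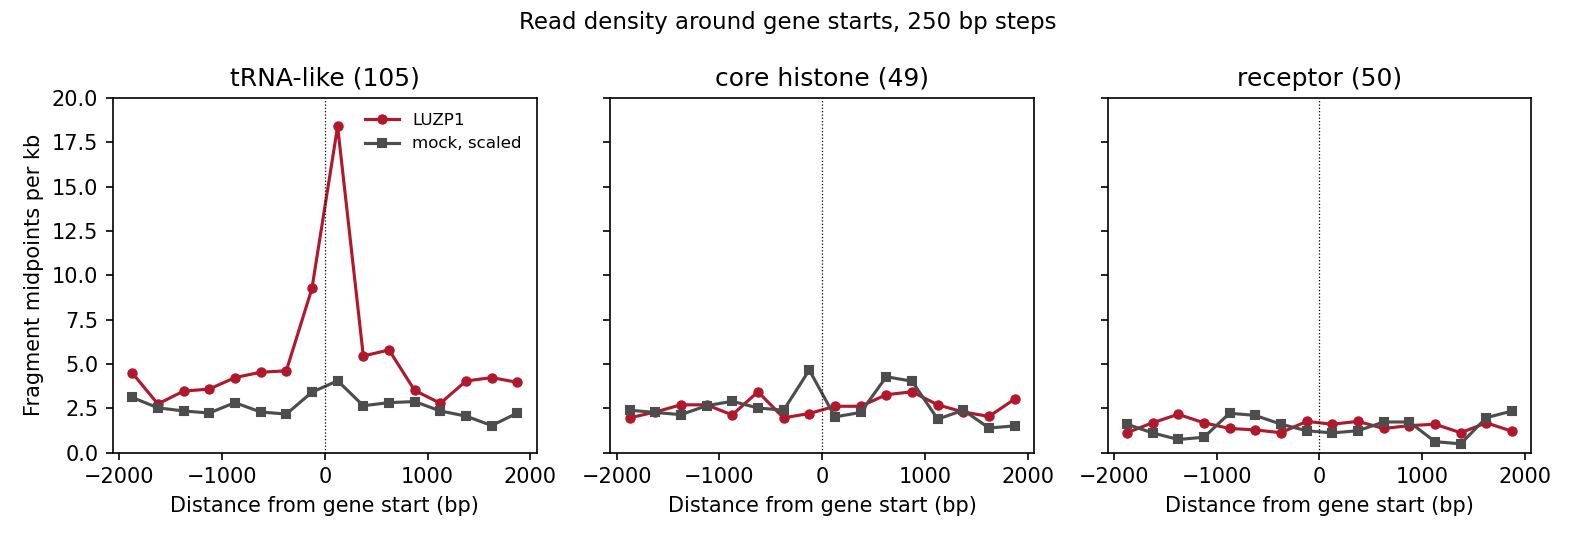
Fragment midpoints per kb by distance from the gene start in 250 bp steps, for 105 tRNA-like sequences, 49 core histone genes and 50 receptor genes, with LUZP1 as red circles and the scaled mock as grey squares. LUZP1 reaches 18.4 midpoints per kb in the first 250 bp of the tRNA-like sequences, and at the histone and receptor genes the lines stay below 5.

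**Figure D4:**
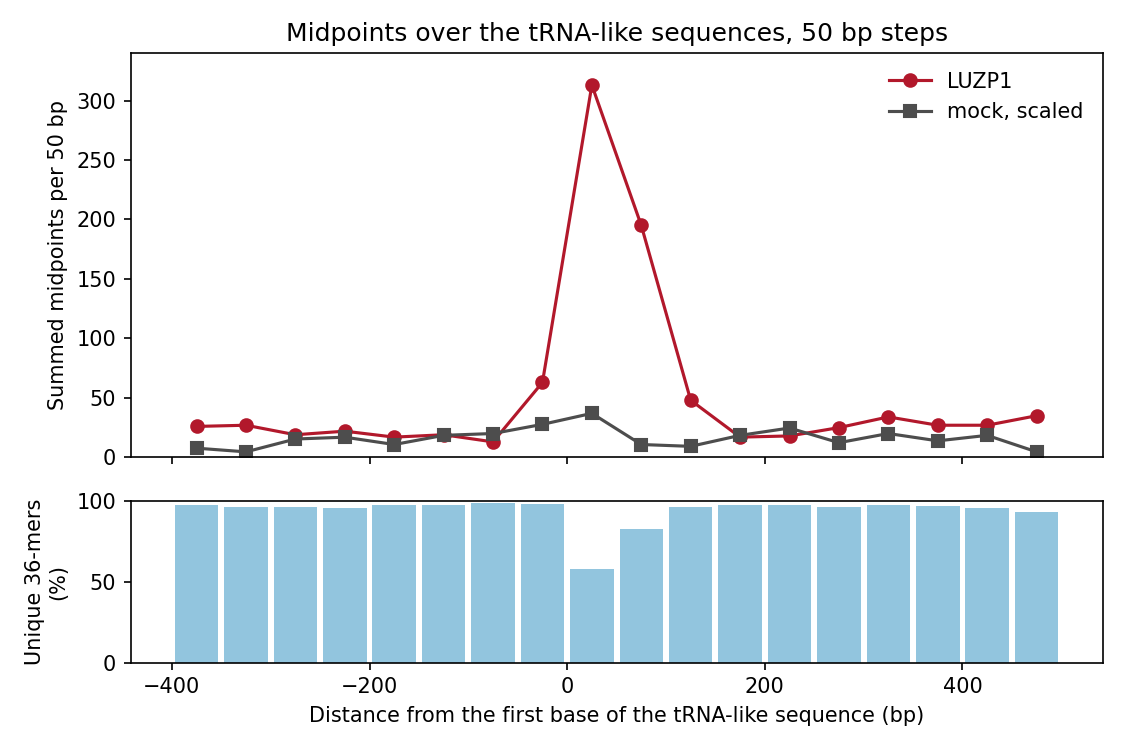
Midpoints summed over the 105 tRNA-like sequences in 50 bp steps from their first base, placed at each library's own fragment length, with the mock scaled to the LUZP1 total, above the share of 36-base sequences that occur once in the genome. LUZP1 reaches 313 midpoints in the first 50 bp, the step in which 57.9% of 36-base sequences occur once.

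At finer resolution, with midpoints placed at each library's own fragment length, the excess was highest over the gene body and its 3′ side. From 0 to 50 bp after the first base there were 313 LUZP1 and 24 mock midpoints, a ratio of 8.46 (5.58–13.4). From 50 to 100 bp the counts were 195 and 7, a ratio of 18.1 (8.61–45.6), and from 100 to 150 bp they were 48 and 6, a ratio of 5.19 (2.22–14.8). In the 50 bp before the first base there were 63 and 18, a ratio of 2.27 (1.33–4.08), and from 100 to 50 bp before it 13 and 13, 0.649 (0.277–1.52). Farther out, 3 steps also had intervals above 1. These were 400 to 350 bp before the first base with 26 and 5, 3.37 (1.28–11.3), 350 to 300 bp before it with 27 and 3, 5.84 (1.80–30.1), and 450 to 500 bp after it with 35 and 3, 7.57 (2.39–38.5). In the 250 bp steps, the ratio from 1500 to 1750 bp after the start was 2.77 (1.79–4.43). These sums were not cleared of other tRNA-like sequences, and a read near 2 sequences was counted for each. Another tRNA-like sequence overlapped the step at 4, 4, 9 and 10 of the 105 copies in these 4 steps, against 0 copies in each step from 50 bp before to 150 bp after the first base. All 250 bp steps within 2000 bp had intervals above 1, except those from 1750 to 1500 bp before the start and from 750 to 1250 bp after it. At 2000 to 1750 bp before the start the ratio was 1.44 (1.04–2.04). Across the 250 bp steps, another tRNA-like sequence overlapped at 2 to 17 copies. These steps thus mark no end of the excess within 2000 bp. Outside the sequences themselves, the downstream side had 205 LUZP1 and 53 mock midpoints, 2.51 (1.85–3.46), and the upstream side 134 and 61, 1.43 (1.05–1.96). The bodies of tRNA-like sequences are repeated in the genome, since a median of 48.6% of their 36-base sequences occur once, against medians of 99.6% and 100% in the 250 bp to the left and right. Reads wholly inside the body can thus be placed at 1 copy only in part. Midpoints were placed at different distances from the read ends in the 2 libraries. Reads lost for this reason are thus missing at different positions in each. The part this plays in the step and side ratios was not tested.

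Most individual copies leaned toward LUZP1. With 250 bp added on each side, LUZP1 midpoints per copy ran from 0 through a median of 7 to 19, and mock midpoints from 0 through a median of 1 to 6. Scaled LUZP1 was above the mock at 94 of the 105 copies, against 56.5% of the 414 tRNA-like sequences elsewhere and 51.5% of gene stretches elsewhere. It was below the mock at 11 copies, against 22.2% and 38.3%, and the rest elsewhere leaned neither way. In the cluster, 0 copies were empty in both libraries. LUZP1 density was 12.8 midpoints per kb at the copies and 5.04 at the sequences elsewhere. All shares of copies given here thus also depend on the number of midpoints. The mock had 0 midpoints at 42 copies. At 24 copies the exact interval lay above 1, against 7.97% of the sequences elsewhere, and at 0 copies below 1, against 0.242%. With pairs counted once, the interval lay above 1 at 3 copies, against 2.17% elsewhere, so few single copies hold enough fragments to be told apart from the mock. Pooled over their 91 separate stretches the copies had 740 LUZP1 and 132 mock midpoints, 3.64 (3.02–4.41), or 3.34 (2.69–4.20) with pairs counted once. The 85 copies standing clear of annotated genes gave 3.51 (2.87–4.33).

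By amino acid, the 12 alanine copies had 111 LUZP1 and 9 mock midpoints, 8.0 (4.07–18.0), and the 7 glutamine copies had 45 and 4, 7.30 (2.66–27.9). These were the highest ratios among amino acids with more than 3 copies, and their intervals overlap. In sums by amino acid, anticodon or kind, a midpoint within 250 bp of 2 copies was counted for each. Values of neighbouring copies, such as tRNA-Ala-AGC and tRNA-Val-AAC, are thus not separate. The 9 tRNA-Ala-AGC copies had 101 LUZP1 and 5 mock midpoints, a ratio of 13.1 (5.44–41.2). Of these, 5 carry the B box GGATCGATGC, with 60 and 3 midpoints, and 4 carry other B boxes, with 41 and 2. The other alanine copies had few reads, with 9 and 3 at the 2 tRNA-Ala-CGC copies, 1.95 (0.486–11.2), and 1 and 1 at the tRNA-Ala-TGC copy. The copy inside the first listed peak, chr13:23492664-23492736, had 19 and 0, the highest LUZP1 count of the 105. Its letters are identical to those of the copies at chr13:23377518-23377590, with 7 and 1, and chr13:23390930-23391002, with 4 and 0. The first of the 3 identical copies was picked for its high count, and the intervals of their ratios overlap. Their counts include flanking DNA and neighbouring tRNA-Val-AAC copies. What the spread among them reflects was not tested. The copy of the second listed peak, chr13:23504810-23504882, had 17 and 2, and a neighbouring tRNA-Val-AAC at chr13:23505117-23505189 had 10 and 0.

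**Figure D5:**
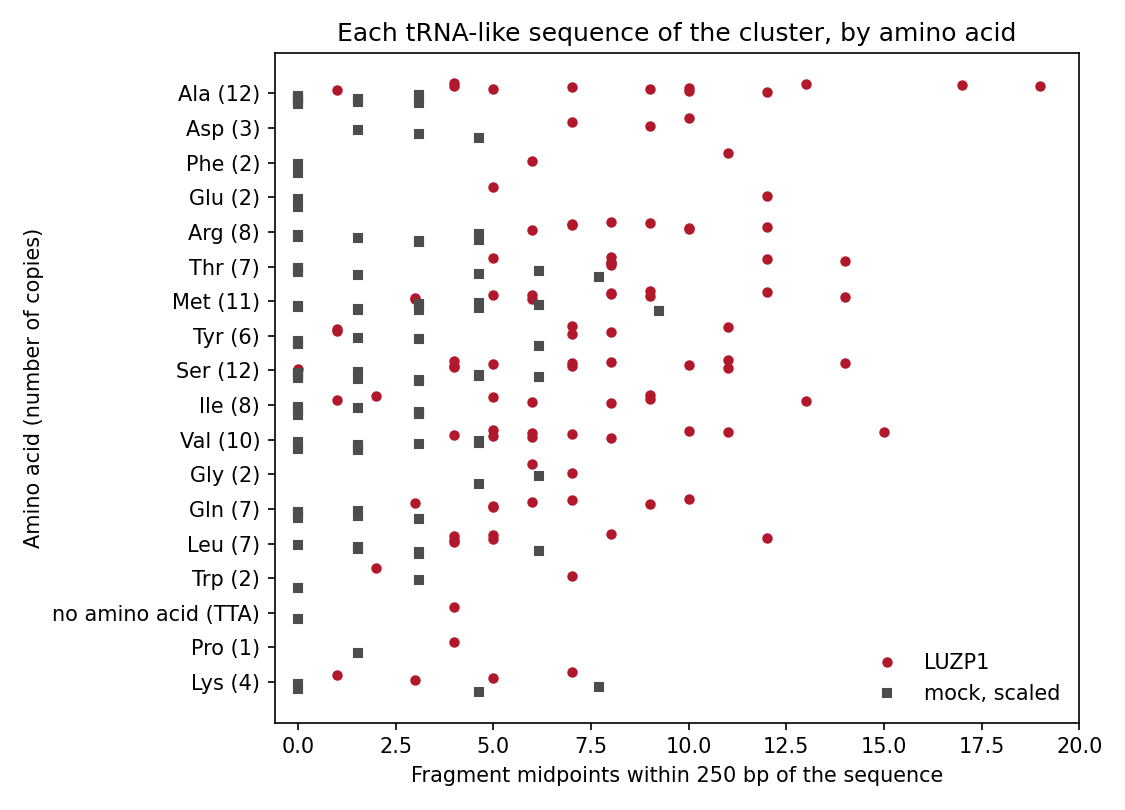
Fragment midpoints within 250 bp of each of the 105 tRNA-like sequences, grouped by amino acid and ordered by the median LUZP1 count, with LUZP1 as red circles and the mock scaled to the LUZP1 total as grey squares. The highest LUZP1 point, 19, belongs to an alanine copy whose mock count is 0.

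Other families leaned the same way by smaller or less certain amounts. Valine tRNA-Val-AAC had 42 LUZP1 and 4 mock midpoints over 5 copies, 6.81 (2.47–26.2), and tRNA-Val-CAC had 35 and 8 over 5 copies, 2.84 (1.29–7.08). Serine tRNA-Ser-AGA had 40 and 6 over 5 copies, 4.33 (1.82–12.5), and isoleucine tRNA-Ile-AAT had 31 and 5 over 6 copies, 4.02 (1.55–13.3). The 6 tRNA-Tyr-GTA copies, of which 5 folded with an intron, had 35 and 7, 3.24 (1.42–8.66). The 3 tRNA-Arg-ACG copies had 26 and 1, 16.9 (2.77–692), and the 2 tRNA-Phe-GAA copies had 17 and 0, with a lower bound of 2.68. Both Phe copies and both Glu copies were at 0 in the mock.

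Methionine copies fell into the 2 known kinds. The initiator tRNA, which starts protein synthesis, is marked by 3 G–C pairs at the end of the anticodon stem, found here as the letters GGGCCCATAACCC. The 7 initiator copies had 63 LUZP1 and 11 mock midpoints, 3.72 (1.94–7.82), with 5 to 14 LUZP1 midpoints a copy. The 4 elongator copies, which serve internal methionines, had 20 and 13, 0.998 (0.473–2.18), with 3 to 8 a copy. The kinds were compared after the counts of the copies had been seen, so the difference is a description.

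In some families the counts were close between libraries. The 3 tRNA-Lys-TTT copies had 9 LUZP1 and 8 mock midpoints, 0.730 (0.250–2.17), and the 2 tRNA-Gly-GCC copies 13 and 7, 1.21 (0.447–3.57). At the single-copy level, the tRNA-Lys-TTT copy printed above had 1 and 5 midpoints, 0.130 (0.00274–1.16). The printed tRNA-Ser-GCT copy had 0 and 2, the only copy without a LUZP1 midpoint. Its neighbouring 250 bp stretches can be read in full on each side, since 100% of their 36-base sequences occur once. Other tRNA-Ser-GCT copies had 11 and 1 midpoints, 7 and 0, and 5 and 3, so the count differed within a family.

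Identical copies hold the letters of the gene constant, while their counts include flanking DNA. The part of counting error in their ranges was not tested. The 105 copies comprise 76 distinct sequences, and 47 copies in 18 sets have an identical copy in the cluster. The 6 identical initiator tRNA-Met-CAT copies ranged from 5 to 14 LUZP1 midpoints and from 0 to 3 mock midpoints. The 5 identical tRNA-Ile-AAT copies ranged from 1 to 9 and from 0 to 2, the 4 identical tRNA-Ser-AGA copies from 7 to 11 and from 0 to 2, and the 3 identical tRNA-Asp-GTC copies from 7 to 10 and from 1 to 3. A read that lies wholly within the shared letters cannot be assigned to 1 of the copies.

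Copies lay in 4 blocks separated by more than 100 kb. The block at chr13:21252654-21418658 had 24 copies with 165 LUZP1 and 36 mock midpoints, 2.97 (2.06–4.39). The block at chr13:21802449-22142636, which spans a group of histone genes, had 35 copies with 258 and 48, 3.49 (2.55–4.85). The block at chr13:23362290-23622288 had 45 copies with 317 and 46, 4.47 (3.27–6.23). The remaining block is the lone tRNA-Ser-GCT copy. LUZP1 density was 12.7, 12.9 and 13.1 midpoints per kb in the 3 larger blocks, and scaled mock density 4.27, 3.69 and 2.92, with intervals of the ratio that overlap.

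A run of TTTT, the letters that end RNA polymerase III transcripts, lay within 50 bp after the 3′ end in 99 of the 105 copies (94.3%), on the strand of the gene. In all 50 bp stretches of the cluster, taken on 1 strand each, the share was 28.5%. In the midpoint counts that follow, a midpoint shared by neighbouring copies was counted for each. The 99 copies with the run had a median of 7 LUZP1 midpoints and a pooled ratio of 3.53 (2.92–4.29). The 6 without had a median of 10 and 5.03 (2.4–12.2), and the intervals overlap. With only 6 copies lacking the run, these counts cannot tell whether it separates copies.

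The listed peaks were small in number of reads. Counting reads that overlap the peak after extension, the peak at chr13:23492662-23492795 had 15 LUZP1 and 0 mock reads, a ratio with a lower bound of 2.33. Joining pairs gave 13 and 0 and a bound of 1.74. The peak at chr13:23504749-23504861 had 13 and 2, 4.22 (0.955–38.5), and the tRNA-Thr-AGT peak at chr13:21947806-21947912 had 10 and 3, 2.16 (0.557–12.2). Together they had 38 and 5, 4.93 (1.94–16.1). The authors chose these peaks on the LUZP1 reads counted here, so the values describe the list. Windows with 14 and 0 midpoints at tRNA-Thr-CGT and tRNA-Ile-TAT were not on it.

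Pooled core histone genes did not differ between libraries beyond counting error. The H2A genes leaned toward the mock. Within 500 bp of their starts they had 25 LUZP1 and 26 mock midpoints, 0.624 (0.346–1.12), an interval that crosses 1. In 250 bp steps, the step just upstream of core histone starts leaned toward the mock, and 1 farther downstream toward LUZP1. Around the 49 core histone starts, 500 bp on each side, there were 98 LUZP1 and 72 mock midpoints, a ratio of 0.883 (0.645–1.21). The start windows are hard to read, as 59.1% of their 36-base sequences occur once, and histone copies share much of their coding sequence. The H2A genes, with 250 bp on each side, had 34 and 42 midpoints, 0.525 (0.324–0.846), or 0.498 (0.286–0.861) with pairs counted once. Counted in the same way with all reads, H2B genes had 138 and 78, 1.15 (0.863–1.54), H3 genes 35 and 17, 1.34 (0.729–2.54), and H4 genes 30 and 19, 1.02 (0.558–1.93). The H2B value rests largely on Hist1h2be, which is annotated over 37383 bp and had 81 and 38 midpoints. In the 250 bp just upstream of core histone starts, where 85.1% of 36-base sequences occur once, there were 27 LUZP1 and 37 mock midpoints, 0.473 (0.277–0.799), and in the first 250 bp downstream 32 and 16, 1.3 (0.691–2.53), with a read near 2 starts counted for each.

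Among single core histone genes, 0 had an interval above 1, against 5.65% of gene stretches elsewhere, and 3 had an interval below 1, against 3.31%. They were the H2A gene Hist1h2ak with 2 LUZP1 and 8 mock midpoints, the H4 gene Hist1h4f with 1 and 6, and the H2A gene Hist1h2ah with 0 and 4. With pairs counted once the interval crossed 1 at Hist1h2ak (2 and 5 fragments, upper bound 1.40) and Hist1h4f (1 and 4, upper bound 1.44), and stayed below 1 at Hist1h2ah (0 and 4). The gene stretches elsewhere are of any length, while 44 of the 49 core histone genes are under 2000 bp. With 0 mock midpoints, an interval above 1 takes at least 8 LUZP1 midpoints, and only 12 of the 49 genes had 5 or more. Most of them could thus not be called toward LUZP1, and the 0 says little about these genes. The highest counts at short genes were 8 and 3 at the H4 gene Hist1h4i and 8 and 4 at the H2A gene Hist1h2ai. The genes Hist1h2ao, Hist1h2ap, Hist1h2bq and Hist1h2br had 0 midpoints in both libraries and no 36-base sequence that occurs once, so nothing can be said of them. Hist1h4m and Hist1h2bh were also at 0 in both.

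Linker histone genes encode H1, which binds DNA between nucleosomes. The 6 genes had 57 LUZP1 and 40 mock midpoints, 0.925 (0.606–1.42). Hist1h1a stood apart from the rest with 13 and 1, 8.44 (1.27–358), 1 of 6 with an interval above 1 where 5.65% of gene stretches elsewhere, of any length, had one. Its lower bound was 0.913 with pairs counted once. Hist1h1e had 2 and 6, Hist1h1c 9 and 9, Hist1h1d 22 and 17, Hist1h1b 7 and 5, and the testis gene Hist1h1t 4 and 2.

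Receptor genes were read by family, the odorant receptors of the main olfactory epithelium and the vomeronasal receptors of the vomeronasal organ. The 13 odorant receptor genes, with 250 bp on each side, had 44 LUZP1 and 14 mock midpoints, 2.04 (1.10–4.03), or 0.960 to 4.18 with pairs counted once, and their starts gave 1.51 (0.746–3.27). The 37 vomeronasal V1R genes had 79 and 49, 1.05 (0.723–1.53), and their starts 1.08 (0.674–1.76). The odorant receptor ratio was 1.95 (0.928–4.25) times the vomeronasal ratio, or 1.84 (0.792–4.49) with pairs counted once, so the families did not differ beyond counting error. By gene, 0 receptor intervals lay above 1, against 5.65% of gene stretches elsewhere, which are of any length. Only 6 of the 50 receptor genes had 5 or more LUZP1 midpoints, so most could not be called toward LUZP1. The intervals of Vmn1r211 and Vmn1r216, each with 0 LUZP1 and 4 mock midpoints, lay below 1, 2 of 50 genes where 3.31% did so elsewhere, and neither did with pairs counted once. These 2 genes are named after their values were seen.

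Genes elsewhere that make or process these transcripts were read at their starts. Of 27 genes for RNA polymerase III, TFIIIC, TFIIIB, SNAPc and associated factors, 0 had an interval above or below 1, against 0.689% and 1.44% of all protein-coding starts. Pooled they had 105 LUZP1 and 41 mock midpoints, 1.66 (1.15–2.45), or 1.57 (1.03–2.45) with pairs counted once. All 22367 protein-coding starts had 1.18 (1.16–1.20) with all reads, which lies within the interval of 1.66, so the set did not exceed them beyond counting error. Of 13 symbols for histone mRNA factors, 12 were found, with 36 and 24 midpoints, 0.973 (0.565–1.71). Among them Sympk, a scaffold of 3′ end processing, had 9 and 0 and was the only one with an interval above 1. Npat, which switches on histone genes in S phase, had 2 and 2.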

How the data were processed

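Genomic DNA from 1 LUZP1 and 1 mock precipitation of E14 cells was analysed (the GCN5 precipitation of the design text is not analysed here). Per the labels' design text, reads were sequenced on an Illumina Genome Analyzer II, aligned by the authors to mouse mm9 with Eland allowing 1 mismatch, and enriched clusters were called with MACS, kept at 100 to 1000 bp, repeat masked and annotated with GPAT and Ensembl 57. That text states neither tool versions nor the control used to call peaks. The deposited read files hold a read count of 1 per line with 0 duplicate lines, and the deposited peak list gives positions and no other value, such as a score.

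Counts used Python 3.11.15, numpy 2.4.6, scipy 1.17.1, pandas 2.3.3 and numba 0.67.0, and figures used matplotlib 3.10.9. Each read was lengthened to 200 bp and its midpoint counted in 500 bp windows on NCBIM37, the assembly also called mm9, with GENCODE mouse release 1 genes. Counts were scaled by total reads (mock to LUZP1 ratio 0.649). Intervals are exact conditional binomial (Clopper-Pearson) at 95% and cover counting error only. With 1 library per group no test was made. Reads are not independent where they are the ends of 1 fragment, so pairs at 64 to 106 bp (LUZP1) and 88 to 183 bp (mock) were also counted once. These ranges were widened from 74 to 96 bp and from 150 to 175 bp after an earlier account of these data had been read.

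The tRNA-like sequences were found by structure: an A box of 8 bases (T, a purine, G, a pyrimidine, any 2 bases, A, a purine), a B box of 10 bases (any base, G, A or T, T, C, a purine, A, any 2 bases, C) on either strand, at 38 to 110 bases from it, at least 6 of 7 acceptor pairs and at least 4 of 5 pairs in the anticodon and T arms, with an optional intron. The rule was loosened in steps (91, 96, then 105 sequences in the cluster) until anticodon counts came near the RefSeq list of GRCm38.p6. Each loosening was made after the data files had been seen. The last step was taken after the overlap of the listed peaks had been seen, and before LUZP1 reads at these sequences were counted. The counting and the finder were tested on simulated data.

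Named items were the listed peaks, the 10 LUZP1 and 5 mock windows with the highest interval bounds, tRNA-like sequences and core histone genes with at least 5 LUZP1 or 4 mock midpoints, and receptor or other genes through those windows. Linker histone genes, families, 100 kb steps and copies with fewer reads were described after their values were seen. The members, gene lists and tests were chosen with earlier results of these data known. Alternatives covered the extension, pair counting, scaling, window size and position, left-out windows, unique sequence, class order and edges, call rule and finder.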

Additional observations from a re-analysis of the deposited data

How the results depend on the processing

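Of 151 alternative values, 133 stayed within the interval of the reported value, or within 1.5 times a reported count. Some of the 133 equal the reported value. Putting core histone before tRNA-like changed no class ratio, and windows of 1000 bp did not change the cluster's ratio. The stricter finders, and leaving out windows near listed peaks, did not change the core histone, linker histone or receptor ratios. The tally is thus no measure of robustness. The cluster's ratio of 1.11 was 1.0 without tRNA-like windows and 0.989, below 1, without windows within 1000 bp of a tRNA-like sequence, both alternatives chosen after seeing the data. The tRNA-like ratio of 3.75 was 2.86 when windows within 250 bp of a sequence joined the class and 3.08 in windows of 1000 bp, both of which add flanking DNA to it. It was 3.82 and 3.85 with the stricter finders that gave 91 and 96 sequences, and 3.48 with pairs joined over the narrower range of distances. The receptor ratio of 1.31 (0.95–1.82) was 1.59 (1.08–2.38) in windows with at least 80% unique sequence, the alternative that took its interval above 1. Against the same class elsewhere, the value of 1.65 ran from 1.34, for fully paired sequences, to 1.74. Counts of windows moved most. Those toward LUZP1 (117) were 19 by the exact interval, 2 by the exact interval with pairs counted once (added after seeing the data), 35 with at least 8 midpoints, 59 with pairs counted once, 70 with pairs over the narrower range, 56 without tRNA-like windows and 47 without windows within 1000 bp of one. Those toward the mock (63) were 13 by the exact interval, 1 by the exact interval with pairs counted once, 38 at 3-fold, 8 with at least 8 midpoints, 6 with pairs counted once, 23 with pairs over the narrower range and 126 in windows of 1000 bp. Leaving out a replicate was not possible with 1 library per group, and no paired analysis was possible because each group has 1 library. Depth limits single windows and copies: 37.9% of windows had no midpoint in either library.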
